A study of Rattus norvegicus with 6 samples.

Results

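Genes of the synaptic vesicle and of regulated exocytosis were examined in neurons of the first and second lumbar (L1-L2) dorsal root ganglia (DRG) of spontaneously hypertensive rats (SHRs). They were the rows of biotype protein_coding whose names belong to the following families: synaptotagmins (Syt), syntaxins (Stx), syntaxin-binding proteins (Stxbp), vesicle-associated membrane proteins (Vamp), the Snap genes, synapsins (Syn), synaptophysin (Syp), synaptoporin (Synpr), synaptogyrins (Syngr), Sv2, Rab3, Rims, complexins (Cplx), Unc13, Nsf, Cadps and dynamins (Dnm). The rule used names alone and found 80 of the 25689 genes in the table, of which 76 had enough counts to be tested and 4 (Vamp5, Cplx4, Syt17 and Syngr4) did not. The study removed the perirenal adipose tissue (PRATA, perirenal adipose tissue ablation) and asked how sensory neurons of ganglia that project to it differ afterwards. The isolation it describes had no step that selected the neurons projecting to the fat. The 3 PRATA samples came from SHRs in which the perirenal fat of both sides had been cut away, and the 3 sham samples came from SHRs that had the operation without removal. Both groups carried the wild type genotype by the labels, were listed at an age of 6 to 8 weeks, and were collected 4 weeks after the operation. SHRs of both groups are hypertensive by strain, and no normotensive rats were analysed here. The study reported that PRATA lowered the blood pressure of SHRs over weeks, so the groups are not taken as alike in pressure. Ganglia were digested with enzymes and the cells were plated for some hours so that adhesion separated neurons from glia, which is an enrichment and not a sort.

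Chemical transmission rests on vesicles that dock at the plasma membrane, are primed, and fuse when calcium enters the terminal. A SNARE protein on the vesicle (a Vamp) zips together with a syntaxin and a SNAP-25 family protein on the plasma membrane, syntaxin-binding and Munc13 proteins (Stxbp, Unc13) prepare that assembly, complexins clamp it and synaptotagmins sense the calcium, after which Nsf takes the spent complexes apart and dynamins help to retrieve the membrane. Sensory neurons make these proteins in the cell body within the ganglion and ship them to central and peripheral endings, and they use related machinery to release neuropeptides from dense core vesicles.

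Libraries held between 5892967 (sham replicate 2) and 15226952 (sham replicate 1) counts, and 3 counts, taken as the floor, corresponded to between 0.197 and 0.509 CPM (counts scaled to the size of each library). The genes of the set took between 0.521% (sham replicate 1) and 0.891% (PRATA replicate 1) of all counts. Each of the 24 sensory neuron markers had counts in every sample. So did all markers of satellite glia, Schwann cells, fibroblasts, macrophages and endothelial cells found in the table, so the samples held RNA of these cells as well. Of these, Emcn (endothelial cells) and Ncmap (Schwann cells) lay below the floor in sham replicate 3, at 2 counts each. Sham replicate 2 stood apart from the other sham samples, with a mean sensory neuron marker level of 8.35 log2 CPM against 7.75 and 7.98 in sham replicates 1 and 3, and that level lay within the range of the PRATA samples (8.31 to 8.71). PRATA replicate 2 in turn was the lowest PRATA sample, at 8.31 log2 CPM against 8.65 and 8.71 in PRATA replicates 1 and 3. Calls gained without sham replicate 2, or without another single sample, are given beside the genes. Most calls lost in this way are gathered in the last paragraph of these results.

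After PRATA, 61 of the 76 genes tested (80.3%) had a log2 fold change above 0, against 52.0% of all 14919 genes tested. The median log2 fold change of the set was 0.38 (1.31-fold), against 0.025 over all genes. Relative to the mean of the sensory neuron markers in each sample, the median was -0.12, against -0.49 over all genes. On that scale 20 of 76 genes were above 0, against 1953 of 14919. By edgeR's quasi-likelihood test, 17 genes (22.4%) were higher after PRATA at an unadjusted p under 0.05, against 8.19% of all genes, and 0 were lower, against 10.1% of all genes. Genes so counted are called higher or lower here. Counts of calls by role, class or list below stand against the same shares of all genes, 8.19% higher and 10.1% lower. CPM values are listed in the order of replicates 1, 2 and 3, and log2 fold changes are given with their SE. None of the 76 passed an adjusted p of 0.05 by edgeR, where the smallest was 0.158, and 0.00% of all genes did. DESeq2 put 2 of the 76 (Stx1a and Unc13a, 2.63%) past that threshold, against 4.88% of all genes, and limma voom with sample quality weights put 12 (15.8%) past it, against 7.86% of all genes, each of them higher after PRATA. limma-trend put 0 of the 76 and 0 of all genes past it. Without sham replicate 2, edgeR put 6 (7.89%) past it, against 4.67% of all genes. No gene of the set combined an unadjusted p under 0.05 with an absolute log2 fold change over 1, in either direction, where the shares of all genes were 1.17% higher and 3.23% lower.

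In 19 genes (25%) all 3 PRATA samples lay above all 3 sham samples, against 11.6% of all genes, and in 0 they all lay below, against 11.2%. An exact permutation test of 3 against 3 samples cannot go below p = 0.1, so the order of the samples is given as a description. The count depended on the samples: 37 genes were higher without sham replicate 2 and 25 without PRATA replicate 2. It was 8 or 9 without PRATA replicate 1, PRATA replicate 3, sham replicate 1 or sham replicate 3, each left out singly. With PRATA replicate 3 and sham replicate 1 both left out, the count was 4 of the 75 genes then tested, and 0 were lower. Calls over all genes, in either direction, moved as well. They were 2734 of 14919 in the 6 samples and 4254 of 15438 without sham replicate 2. Without PRATA replicate 1, 2 or 3 they were 1406 of 15774, 2371 of 15408 and 2000 of 15323. Without sham replicate 1 or sham replicate 3 they were 2364 of 15360 and 1471 of 15758. With PRATA replicate 3 and sham replicate 1 both left out they were 1907 of 14808. The share of all genes called higher alone is not given for samples left out, so the counts of the set cannot be set against it there. The labels do not say whether the samples of a group are separate animals, so the p-values measure the spread between these samples. In bulk RNA, more cells of a type and more RNA per cell cannot be told apart.

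**Figure D1:**
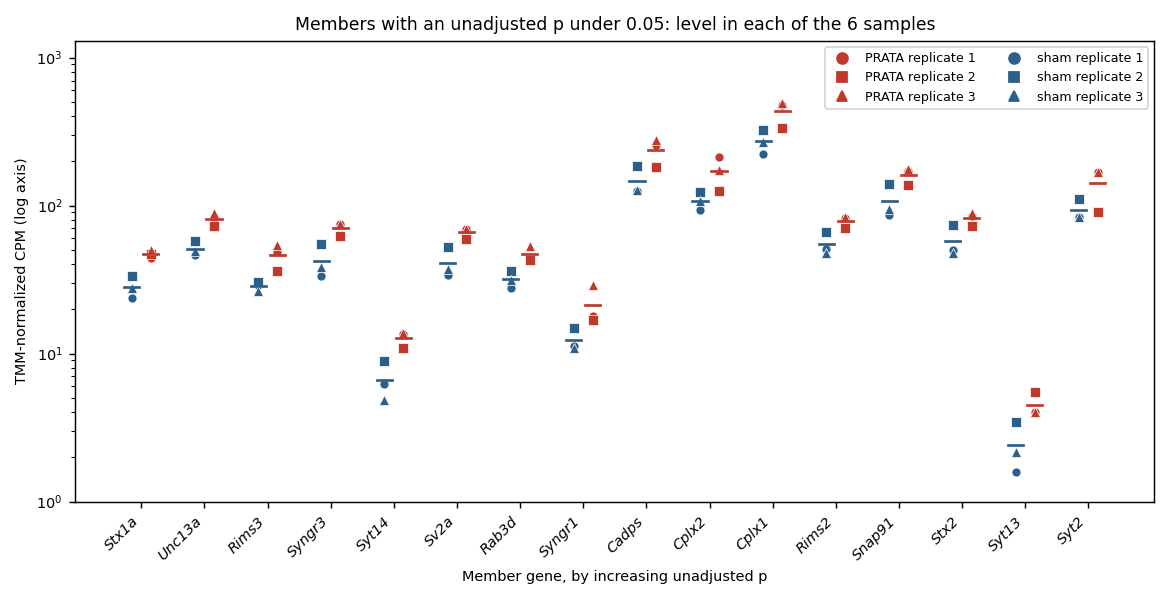
Level of 16 of the 17 genes that were higher after PRATA at an unadjusted p under 0.05, in CPM on a log axis, 1 point per sample for the 3 PRATA and 3 sham samples. In Cadps, Stx2, Syt2 and Snap91 the groups overlapped, and relative to the sensory neuron markers none of the 17 was higher, against 0.134% of all genes.

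The genes upstream of which a RefSeq promoter is shown were chosen for the results. Stx1a and Unc13a had the smallest p-values of the set, Cplx1 is a SNARE chaperone that was called higher, and Syn1, the classical marker of presynaptic vesicles, was called only without sham replicate 2 among the single leave-outs. Each is the 250 bases before the annotated start in RefSeq's GRCr8 assembly, read 5′ to 3′ on the gene's strand, at chr12:27306472-27306721 (minus strand, Stx1a), chr16:18415787-18416036 (minus strand, Unc13a), chr14:1328823-1329072 (plus strand, Cplx1) and chrX:3725495-3725744 (plus strand, Syn1). Capitals mark a GC box (GGGCGG, or CCGCCC where it lies on the other strand) or a cAMP response element (TGACGTCA).
Stx1a: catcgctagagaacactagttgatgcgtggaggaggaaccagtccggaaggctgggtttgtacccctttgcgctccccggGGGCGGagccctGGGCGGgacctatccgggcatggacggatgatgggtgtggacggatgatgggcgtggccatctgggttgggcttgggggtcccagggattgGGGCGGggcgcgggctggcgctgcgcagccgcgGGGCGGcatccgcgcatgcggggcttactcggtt
Unc13a: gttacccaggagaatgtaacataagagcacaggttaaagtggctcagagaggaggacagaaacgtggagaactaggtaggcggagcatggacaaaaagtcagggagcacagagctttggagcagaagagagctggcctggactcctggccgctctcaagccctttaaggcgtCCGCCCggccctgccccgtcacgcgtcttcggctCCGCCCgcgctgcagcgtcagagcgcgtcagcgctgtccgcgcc
Cplx1: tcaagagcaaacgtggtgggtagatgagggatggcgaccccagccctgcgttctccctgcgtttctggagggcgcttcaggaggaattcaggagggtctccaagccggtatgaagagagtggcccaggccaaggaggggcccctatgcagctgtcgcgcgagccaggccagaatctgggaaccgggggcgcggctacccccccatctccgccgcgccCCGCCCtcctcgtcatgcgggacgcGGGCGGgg
Syn1: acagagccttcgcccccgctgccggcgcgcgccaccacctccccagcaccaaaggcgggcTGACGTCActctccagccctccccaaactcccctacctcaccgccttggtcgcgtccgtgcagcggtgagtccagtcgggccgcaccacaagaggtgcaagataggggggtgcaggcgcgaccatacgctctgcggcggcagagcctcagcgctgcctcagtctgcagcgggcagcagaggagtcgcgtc

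The Stx1a promoter held 4 GC boxes, those of Unc13a and Cplx1 2 each, and that of Syn1 1 cAMP response element. Of the 80 genes, 63 matched an entry of the promoter table. Searched on both strands, a GC box was present in 42 of the 63 (66.7%), against 41.4% of the 18999 protein-coding genes with a promoter of that length, and the median GC content was 61.6% against 54.8%. The cAMP response element was present in 2 (Syn1 and Vamp1, 3.17%), against 2.08%. TATAAA was present in 3 (Stxbp3, Syt14 and Syt16, 4.76%), against 13.2%, and TTCAGCACC, the left part of the RE1 element, in 0, against 0.368%. None of these motifs contains another, and the matches describe letters in a window.

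Of the 9 plasma membrane syntaxins and SNAP-25 family genes, 8 had a log2 fold change above 0 and 3 were higher after PRATA, Stx1a and Stx2 among them, with a median of 0.46. Stx1a, the syntaxin that forms the neuronal fusion complex (ENSRNOG00000029165), was measured at 44.3, 47.01 and 50.1 CPM after PRATA and at 23.8, 33.2 and 27.9 CPM after the sham operation. All PRATA samples lay above all sham samples (log2 fold change 0.74 ± 0.18, edgeR adjusted p = 0.158), and the groups differed by 1.67-fold. Stx2, a syntaxin of many secretory cells, was measured at 84.5, 73.2 and 89.8 CPM after PRATA and at 50.3, 74.5 and 47.6 CPM after the sham operation. Sham replicate 2 reached the PRATA range, above PRATA replicate 2, and the other sham samples were lower (log2 fold change 0.52 ± 0.21, edgeR adjusted p = 0.246).

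Snap25, Snap47 and Stx4 were not called in the 6 samples. Snap25, the partner of Stx1a on the plasma membrane, was measured at 405, 222 and 334 CPM after PRATA and at 183, 276 and 238 CPM after the sham operation. PRATA replicate 1 was highest, PRATA replicate 2 lay within the sham range, and the log2 fold change was 0.46 ± 0.27 (edgeR adjusted p = 0.389). Snap47, a SNAP-25 relative found in most cells, was measured at 18.2, 17.2 and 19.8 CPM after PRATA and at 8.77, 16.5 and 14.4 CPM after the sham operation. The groups did not overlap, yet the spread among the sham samples was wide (log2 fold change 0.49 ± 0.26, edgeR adjusted p = 0.344). Stx4, a plasma membrane syntaxin of many cell types, was measured at 19.9, 23.4 and 18.7 CPM after PRATA and at 23.1, 18.3 and 23.3 CPM after the sham operation. The groups were intermixed (log2 fold change -0.062 ± 0.19, edgeR adjusted p = 0.888). Leaving out PRATA replicate 2 made Snap25 a called gene (0.67, edgeR adjusted p = 0.304), and leaving out sham replicate 2 did so for Snap47 (0.68, edgeR adjusted p = 0.147). Stx3, Stx11 and Snap29 had log2 fold changes of 0.052, 0.26 and 0.077. Snap23 and Stx19 were not analysed here.

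None of the 6 vesicle SNAREs tested was called in the 6 samples and their median log2 fold change was 0.083, 5 of them lying above 0. Vamp2, the main vesicle SNARE of fast release, was measured at 401, 400.0 and 472 CPM after PRATA and at 323, 488 and 369 CPM after the sham operation. The groups overlapped, with sham replicate 2 the highest of all samples (log2 fold change 0.11 ± 0.22, edgeR adjusted p = 0.826), and the direction turned in sham replicate 1's absence to -0.035 and to -0.40 relative to the neuron markers. Vamp1, a second neuronal vesicle SNARE, was measured at 232, 114 and 222 CPM after PRATA and at 118, 188 and 152 CPM after the sham operation. PRATA replicate 2 was the lowest of the 6 samples while PRATA replicates 1 and 3 were the highest (log2 fold change 0.32 ± 0.30, edgeR adjusted p = 0.602). Vamp4, of the endosomal and Golgi route, had a log2 fold change of 0.29 ± 0.19 and Vamp3, of recycling endosomes, one of -0.23 ± 0.19, and each overlapped between groups. Vamp1 was called when PRATA replicate 2 was left out (0.58, edgeR adjusted p = 0.324) and Vamp4 when sham replicate 2 was (0.48, edgeR adjusted p = 0.0942). Vamp7, of lysosome-related vesicles, had 0.057. Vamp8, of endosomes, was measured at 0.870 to 2.07 CPM with a log2 fold change of 0.029 ± 0.50. Its sign changed in 8 of the 17 alternatives that tested it.

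Syntaxins of endosomes and the Golgi served as the membrane traffic counterpart within the set. Of these 8 genes, 3 had a log2 fold change above 0 and 0 were called in either direction, with a median of -0.038, close to the 0.025 of all genes. Stx16, which acts at the trans-Golgi network, was measured at 35.5, 32.7 and 33.4 CPM after PRATA and at 29.02, 26.2 and 29.8 CPM after the sham operation. Although the groups did not overlap, the difference was small (log2 fold change 0.26 ± 0.16, edgeR adjusted p = 0.409). Stx6, of the trans-Golgi network and endosomes, was measured at 63.4, 81.2 and 65.9 CPM after PRATA and at 88.5, 71.2 and 73.6 CPM after the sham operation. The groups overlapped (log2 fold change -0.15 ± 0.17, edgeR adjusted p = 0.681). Stx18, of the endoplasmic reticulum, was measured at 19.1, 14.8 and 18.3 CPM after PRATA and at 13.96, 24.5 and 21.1 CPM after the sham operation. Sham replicates 2 and 3 were the highest and sham replicate 1 the lowest of the 6 (log2 fold change -0.18 ± 0.25, edgeR adjusted p = 0.718). The other members, Stx5, Stx7, Stx8, Stx12 and Stx17, ranged from -0.096 to 0.16 in log2 fold change.

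Among the 10 tested SNARE chaperones and NSF, 7 had a log2 fold change above 0 and the 2 complexins of central and sensory synapses, Cplx1 and Cplx2, were higher after PRATA. Cplx1, a small protein that clamps and activates the SNARE complex, was measured at 476, 334 and 491 CPM after PRATA and at 225, 324 and 269 CPM after the sham operation. PRATA replicate 2 lay just above sham replicate 2, and the groups did not overlap (log2 fold change 0.67 ± 0.23, edgeR adjusted p = 0.216). Cplx2, the second such complexin, was measured at 213, 126 and 173 CPM after PRATA and at 92.7, 124 and 107 CPM after the sham operation. The lowest PRATA sample exceeded the highest sham sample by a small margin (log2 fold change 0.66 ± 0.23, edgeR adjusted p = 0.209). Without PRATA replicate 1, sham replicate 1 or sham replicate 3 neither was called, and without PRATA replicate 3 Cplx1 was not.

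Neither Nsf nor any syntaxin-binding protein described here was called in the 6 samples. Nsf, the ATPase that recycles SNARE complexes, was measured at 380.1, 245 and 344 CPM after PRATA and at 174, 354 and 219.6 CPM after the sham operation. Sham replicate 2 was the second highest of the 6 (log2 fold change 0.38 ± 0.30, edgeR adjusted p = 0.526). In its absence Nsf was called (0.72, edgeR adjusted p = 0.115). Stxbp5, tomosyn, which holds back SNARE assembly, was measured at 71.5, 64.5 and 64.4 CPM after PRATA and at 53.5, 58.1 and 52.9 CPM after the sham operation. No sham sample reached the lowest PRATA sample (log2 fold change 0.28 ± 0.15, edgeR adjusted p = 0.343). Stxbp2, a syntaxin-binding protein of epithelial and blood cells, was low at 0.774 to 3.39 CPM, with a log2 fold change of -0.29 ± 0.53. Stxbp3, Stxbp4 and Stxbp6 had 0.091, 0.12 and -0.16. Cplx3, a complexin of retinal ribbon synapses, was measured at 1.03, 0.876 and 0.870 CPM after PRATA and at 0.553, 6.40 and 0.850 CPM after the sham operation. Sham replicate 2 stood far above the other 5 samples, which lay at 1.03 CPM or below (log2 fold change -1.40 ± 0.91, edgeR adjusted p = 0.437). Without that sample its log2 fold change was 0.41, and without sham replicate 1 it was called lower, at -1.94 (edgeR adjusted p = 0.322).

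Of the 15 synaptotagmins tested, 12 had a log2 fold change above 0 and 3 were higher after PRATA (Syt14, Syt13 and Syt2), with a median of 0.43. Syt2, a fast calcium sensor used alongside Syt1, was measured at 169, 90.7 and 168 CPM after PRATA and at 83.8, 111 and 84.4 CPM after the sham operation. PRATA replicate 2 lay among the sham samples, and the other PRATA samples were above them (log2 fold change 0.62 ± 0.26, edgeR adjusted p = 0.267). Syt14, which lacks calcium binding (ENSRNOG00000046139), was measured at 13.6, 10.8 and 13.8 CPM after PRATA and at 6.22, 8.90 and 4.82 CPM after the sham operation. This was the highest fold change of the set, 1.93-fold, and the groups did not overlap (log2 fold change 0.95 ± 0.28, edgeR adjusted p = 0.175). Syt13, another synaptotagmin without calcium binding, was measured at 4.002, 5.50 and 4.03 CPM after PRATA and at 1.59, 3.43 and 2.17 CPM after the sham operation. The groups did not overlap at this low level, but the call was lost when any sample but sham replicate 2 was left out (log2 fold change 0.94 ± 0.39, edgeR adjusted p = 0.254).

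The calcium sensors best known from release were not called in the 6 samples. Syt1, the main sensor of synchronous release, was measured at 365, 269 and 307 CPM after PRATA and at 189, 318 and 211 CPM after the sham operation. Sham replicate 2 exceeded PRATA replicates 2 and 3 (log2 fold change 0.39 ± 0.25, edgeR adjusted p = 0.427). Syt7, a slower, high affinity sensor that also serves vesicle refilling and asynchronous release, was measured at 120.4, 105 and 134 CPM after PRATA and at 78.8, 104 and 88.98 CPM after the sham operation. The groups did not overlap, with PRATA replicate 2 and sham replicate 2 next to each other (log2 fold change 0.40 ± 0.18, edgeR adjusted p = 0.279). Both were called when sham replicate 2 was left out, Syt1 at 0.65 and Syt7 at 0.52 (edgeR adjusted p = 0.0896 and 0.106), and Syt7 also when PRATA replicate 2 was (0.49). Syt4, a synaptotagmin of dense core vesicles and the Golgi, was measured at 474, 474 and 419.7 CPM after PRATA and at 417, 483 and 830.1 CPM after the sham operation. Sham replicate 3 stood far above the other 5 samples, which lay between 417 and 483 CPM (log2 fold change -0.34 ± 0.28, edgeR adjusted p = 0.545). Syt11, a synaptotagmin that does not bind calcium, had a log2 fold change of 0.48. Syt3, Syt5, Syt6, Syt9 and Syt12 lay between 0.33 and 0.57, and Syt10, Syt15 and Syt16 between -0.25 and 0.088. Without sham replicate 2, Syt5 (0.66), Syt9 (0.73) and Syt11 (0.66) were called, as was Syt3 without PRATA replicate 2 (0.89). Syt8 was not analysed here.

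Active zone and priming genes had the highest count of calls among the roles: of 14, 13 had a log2 fold change above 0, 5 were higher after PRATA (Unc13a, Rims3, Rab3d, Cadps and Rims2) and 0 lower, with a median of 0.49. Unc13a, Munc13-1, which opens syntaxin and primes vesicles (ENSRNOG00000018452), was measured at 82.7, 72.6 and 88.4 CPM after PRATA and at 46.02, 57.4 and 49.02 CPM after the sham operation. The lowest PRATA sample was well above the highest sham sample (log2 fold change 0.68 ± 0.17, edgeR adjusted p = 0.158). Rims3, a short member of the RIM scaffold family, was measured at 48.9, 36.2 and 54.3 CPM after PRATA and at 29.2, 30.3 and 26.6 CPM after the sham operation. The sham samples lay close together and below each PRATA sample (log2 fold change 0.69 ± 0.20, edgeR adjusted p = 0.172). Rims2, a RIM that tethers calcium channels and vesicles, was measured at 82.1, 70.4 and 83.4 CPM after PRATA and at 50.9, 66.5 and 47.6 CPM after the sham operation. Sham replicate 2 came within reach of PRATA replicate 2 without overlap (log2 fold change 0.52 ± 0.18, edgeR adjusted p = 0.218).

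Priming of dense core vesicles and vesicle-bound GTPases are part of the same step. Cadps, CAPS-1, which primes dense core vesicles, was measured at 256, 181 and 276 CPM after PRATA and at 126, 185 and 128 CPM after the sham operation. PRATA replicate 2 and sham replicate 2 overlapped, and the other samples separated by group (log2 fold change 0.70 ± 0.24, edgeR adjusted p = 0.208). Rab3d, the Rab3 of secretory granules in many tissues, was measured at 44.8, 42.9 and 52.9 CPM after PRATA and at 27.8, 35.9 and 31.5 CPM after the sham operation. Each PRATA sample lay above each sham sample (log2 fold change 0.56 ± 0.18, edgeR adjusted p = 0.188). Rab3a, the main Rab3 of synaptic vesicles, was measured at 223, 146 and 202 CPM after PRATA and at 104, 206 and 133 CPM after the sham operation. In the 6 samples it was not called, and sham replicate 2 was the second highest of the 6 (log2 fold change 0.37 ± 0.28, edgeR adjusted p = 0.508). Rims1, the large RIM scaffold, was measured at 95.01, 56.8 and 70.5 CPM after PRATA and at 43.4, 64.5 and 53.1 CPM after the sham operation. The groups overlapped and it was not called either (log2 fold change 0.47 ± 0.24, edgeR adjusted p = 0.33). With sham replicate 2 left out, Rab3a was called at 0.69 and Rims1 at 0.62 (edgeR adjusted p = 0.114 and 0.162), and with PRATA replicate 2 left out Rims1 was called at 0.63. Unc13b, Unc13c, Rab3b, Rab3c, Rims4 and Unc13d had log2 fold changes from 0.34 to 0.91 without being called in the 6 samples, while Cadps2, CAPS-2, had -0.26. Rab3b (1.31), Rab3c (0.58) and Unc13c (0.58) were called without sham replicate 2, and the last pair also without PRATA replicate 2 (0.58 and 0.61).

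Vesicle coat and membrane proteins numbered 10 tested, of which 9 had a log2 fold change above 0, 3 were higher after PRATA (Syngr3, Sv2a and Syngr1) and 0 lower, with a median of 0.40. Syngr3, a tetraspan protein of synaptic vesicles, was measured at 74.6, 62.5 and 75.04 CPM after PRATA and at 33.3, 54.8 and 38.6 CPM after the sham operation. Sham replicate 2 was the highest sham sample but below PRATA replicate 2 (log2 fold change 0.75 ± 0.22, edgeR adjusted p = 0.175). Sv2a, a vesicle glycoprotein that is the target of levetiracetam, was measured at 69.2, 59.7 and 69.1 CPM after PRATA and at 33.9, 52.3 and 37.4 CPM after the sham operation. The same order was seen, with no overlap (log2 fold change 0.68 ± 0.20, edgeR adjusted p = 0.177). Syngr1, the second neuronal synaptogyrin, was measured at 18.1, 16.8 and 28.9 CPM after PRATA and at 11.3, 14.98 and 10.9 CPM after the sham operation. PRATA replicate 3 was far above the rest and the other 2 PRATA samples only a little above sham replicate 2 (log2 fold change 0.79 ± 0.27, edgeR adjusted p = 0.204).

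The classical markers of synaptic vesicles were not called in the 6 samples. Syp, synaptophysin, a major membrane protein of synaptic vesicles, was measured at 219, 157 and 204 CPM after PRATA and at 104, 199 and 139.8 CPM after the sham operation. Sham replicate 2 lay within the PRATA range (log2 fold change 0.39 ± 0.26, edgeR adjusted p = 0.451). Syn1, synapsin I, which ties vesicles to the cytoskeleton, was measured at 241, 199 and 326 CPM after PRATA and at 162, 276 and 176 CPM after the sham operation. Sham replicate 2 exceeded PRATA replicates 1 and 2 (log2 fold change 0.32 ± 0.27, edgeR adjusted p = 0.562). Both genes were called without sham replicate 2, at 0.67 and 0.60 (edgeR adjusted p = 0.108 and 0.159). Synapsins Syn2 and Syn3, vesicle protein Sv2c and synaptoporin (Synpr) had log2 fold changes of 0.51, 0.40, 0.33 and 0.17, and of these Syn2 (0.75) and Synpr (0.52) were called without sham replicate 2 and Syn2 (0.68) without PRATA replicate 2. Syngr2, the synaptogyrin of non-neuronal cells, was measured at 2.45, 4.22 and 6.41 CPM after PRATA and at 6.91, 6.09 and 7.08 CPM after the sham operation. PRATA replicate 3 lay within the sham range, and PRATA replicates 1 and 2 below it (log2 fold change -0.60 ± 0.36, edgeR adjusted p = 0.402). It was called lower when PRATA replicate 3 was left out (-0.99, edgeR adjusted p = 0.354). Sv2b was not analysed here.

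Vesicle retrieval was represented by 4 genes, all with a log2 fold change above 0 and a median of 0.53. Snap91, AP180, which gathers clathrin for vesicle retrieval, was measured at 170.1, 138 and 177 CPM after PRATA and at 86.8, 141 and 94.1 CPM after the sham operation. In the 6 samples it was the only one of the 4 called, and sham replicate 2 lay just above PRATA replicate 2 (log2 fold change 0.59 ± 0.22, edgeR adjusted p = 0.23). Dnm1, the neuronal dynamin that cuts vesicles from the membrane, was measured at 333, 251 and 328 CPM after PRATA and at 161, 285 and 184 CPM after the sham operation. The groups overlapped through sham replicate 2 (log2 fold change 0.53 ± 0.26, edgeR adjusted p = 0.31). Dnm3, a dynamin of neurons, was measured at 376, 251 and 309 CPM after PRATA and at 181, 280.5 and 189 CPM after the sham operation. Sham replicate 2 exceeded PRATA replicate 2 (log2 fold change 0.52 ± 0.25, edgeR adjusted p = 0.303). Dnm1 and Dnm3 were called when sham replicate 2 was left out, at 0.82 and 0.76 (edgeR adjusted p = 0.0601 and 0.0805), and Dnm3 also when PRATA replicate 2 was (0.66). Dnm2, the dynamin of all cells, was measured at 56.8, 68.8 and 78.9 CPM after PRATA and at 70.3, 54.3 and 64.8 CPM after the sham operation. The groups were intermixed (log2 fold change 0.11 ± 0.19, edgeR adjusted p = 0.789).

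**Figure D2:**
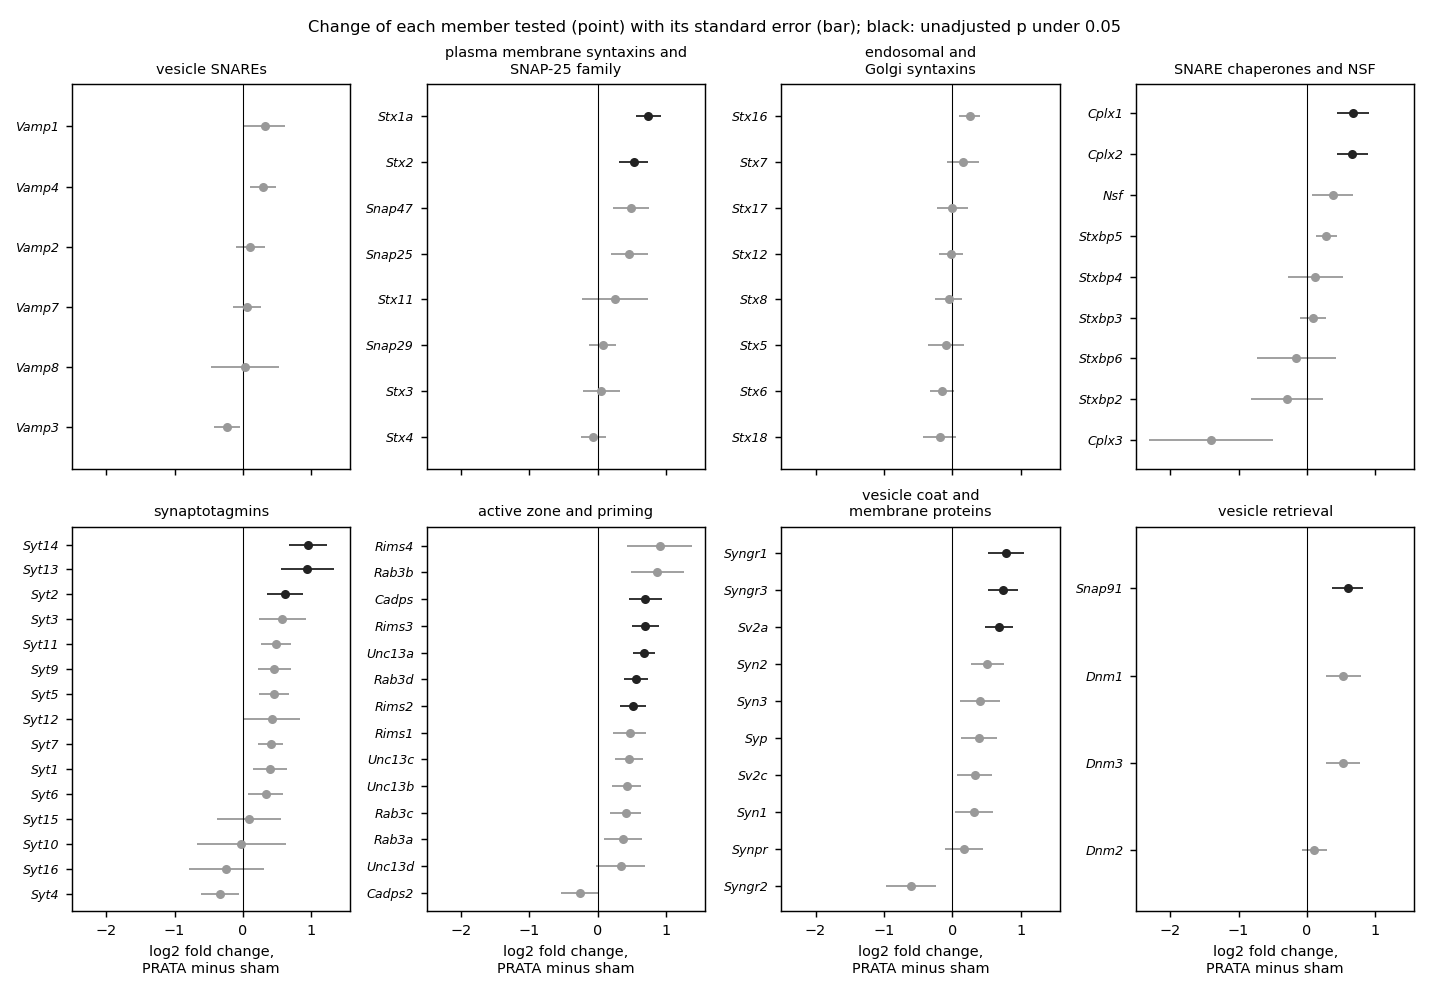
Log2 fold change (PRATA over sham, with its SE as bars) of 74 of the 76 genes tested, in 8 panels by role, with genes called higher in black. Medians ran from -0.038 in endosomal and Golgi syntaxins to 0.53 in vesicle retrieval. Relative to the sensory neuron markers the median of all 76 was -0.12, against -0.49 over all genes.

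The set also divides by where its isoforms are used. Of the 35 tested isoforms used mainly in neurons, 34 had a log2 fold change above 0, 13 (37.1%) were called higher and 0 lower. Of all genes, 8.19% were higher. The median of this class was 0.51 (range -0.34 to 0.91), or -0.042 relative to the sensory neuron markers, where that of all genes was -0.49. Of the 24 tested isoforms used in most cell types, 15 were above 0 and 2 were called higher (Rab3d and Stx2). That 8.33% was near the share of all genes. The median of this second class was 0.055, or -0.46 relative to the sensory neuron markers. The 17 tested genes placed in neither class had a median of 0.33 with 2 called higher (Syt14 and Syt13, 11.8%). The classes come from general knowledge, and the second also holds Stxbp2, described above as of epithelial and blood cells. The difference between the classes is therefore described and was not tested.

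**Figure D3:**
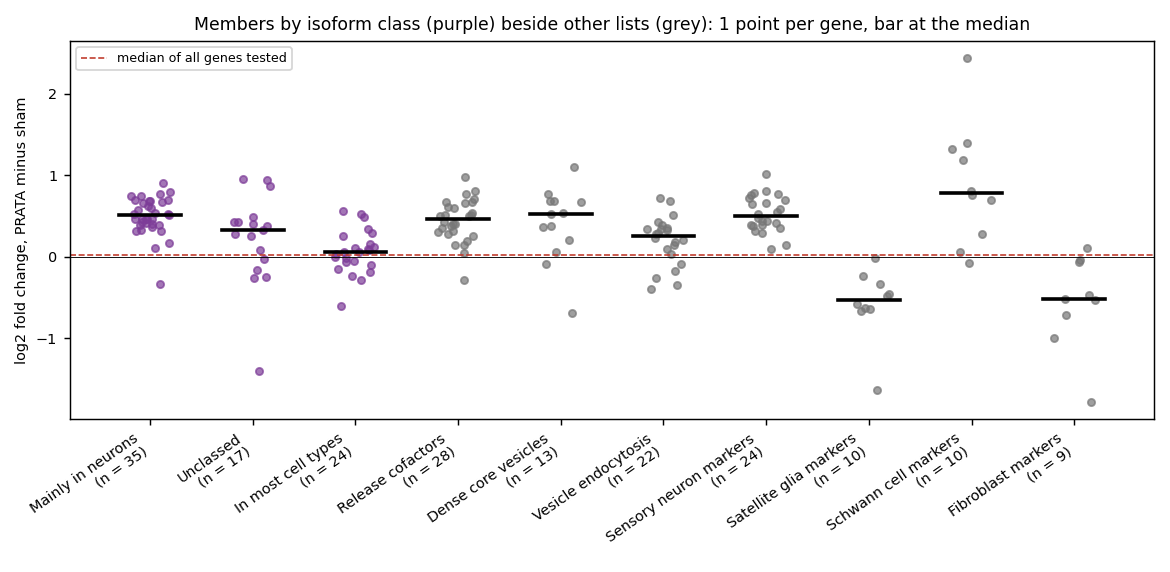
Log2 fold changes of single genes by class and gene list, with bars at the medians and a dashed line at the median of all genes (0.025). The isoforms used mainly in neurons centred on 0.51 and those used in most cell types on 0.055. Relative to the sensory neuron markers these were -0.042 and -0.46, against -0.49 over all genes.

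Mean levels per sample are set beside those of the sensory neuron markers. The isoforms used mainly in neurons averaged 7.001, 6.54 and 6.93 log2 CPM in PRATA replicates 1, 2 and 3 and 6.09, 6.62 and 6.25 log2 CPM in sham replicates 1, 2 and 3. The neuron markers averaged 8.65, 8.31 and 8.71 log2 CPM after PRATA and 7.75, 8.35 and 7.98 log2 CPM after the sham operation. In both lists sham replicate 2 exceeded PRATA replicate 2, so the groups overlapped. The isoforms used in most cell types lay at 4.19, 4.32 and 4.36 log2 CPM after PRATA and 4.17, 4.26 and 4.26 log2 CPM after the sham operation. Of the 24 neuron markers, 24 had a log2 fold change above 0 and 8 were called higher (33.3%, against 8.19% of all genes). Their median was 0.50.

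Markers of other cells differed between the samples as well. Satellite glia markers averaged 6.38, 7.20 and 6.12 log2 CPM after PRATA and 7.49, 6.58 and 7.38 log2 CPM after the sham operation, so the samples with the lowest neuron markers had the highest satellite glia markers. All 10 satellite glia markers had a log2 fold change below 0 (median -0.53, 1 called lower), and their summed level ranged from 3377 to 6423 CPM after PRATA and from 4528 to 8814 CPM after the sham operation. Schwann cell markers averaged 4.71 ± 0.57 log2 CPM after PRATA and 3.89 ± 0.37 after the sham operation (SD, n = 3), with 9 of 10 above 0 and the groups not overlapping. Fibroblast markers averaged 4.49 ± 0.77 and 5.13 ± 0.43 (SD, n = 3). Macrophage and endothelial cell markers had medians of 0.57 and 0.37, with overlapping groups. No marker of any list was at 0 counts in a sample, and the part of these differences in the results above was not tested.

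**Figure D4:**
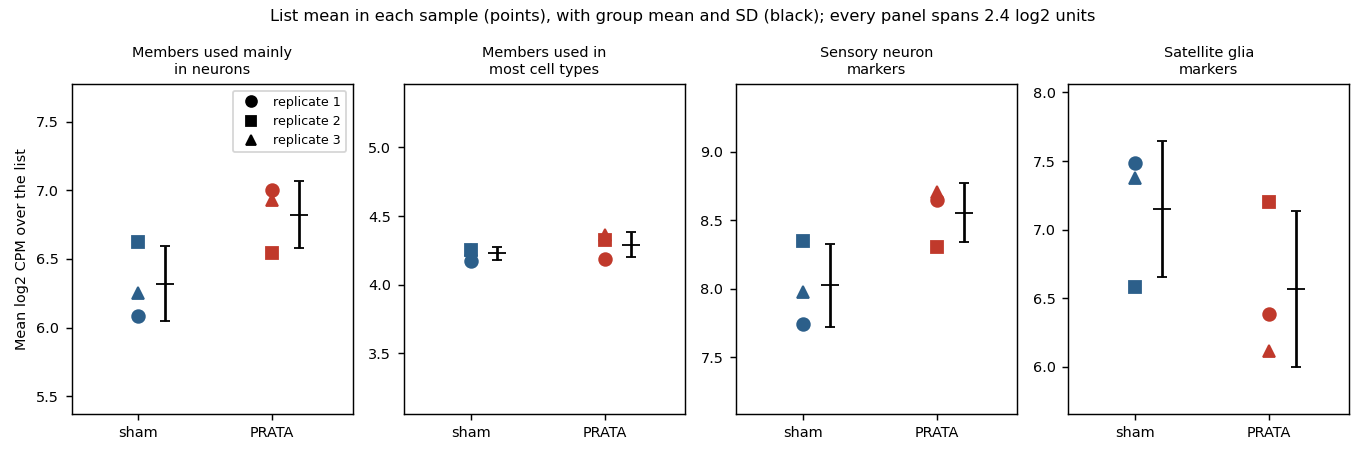
Mean log2 CPM of 4 gene lists per sample, with the mean and SD of the 3 PRATA and 3 sham samples. In the isoforms used mainly in neurons and in the sensory neuron markers sham replicate 2, at 6.62 and 8.35 log2 CPM, lay above PRATA replicate 2, and satellite glia markers ran from 6.12 to 7.49.

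With the mean of the sensory neuron markers subtracted in each sample, 0 of the 76 genes were higher and 5 were lower at an unadjusted p under 0.05 by limma (Stx18, Syngr2, Cadps2, Stx17 and Vamp3), against 0.134% and 25.4% of all genes, whose median was -0.49. None of the 76 passed an adjusted p of 0.05 by limma on this scale. Syt14, Syngr3 and Sv2a were the 3 genes whose PRATA samples all lay above their sham samples on this scale too. Their relative log2 differences were 0.43 ± 0.24, 0.24 ± 0.19 and 0.17 ± 0.20 (SE), limma adjusted p = 0.281, 0.439 and 0.583. Stx1a and Unc13a had 0.21 ± 0.22 and 0.15 ± 0.20 (SE) with overlapping groups, limma adjusted p = 0.529 and 0.653. More genes were separated downward. In Stx18, Syngr2, Cadps2, Stx17, Vamp7, Stx12, Syt16, Vamp2, Snap29, Stx7 and Cplx3 all PRATA samples lay below all sham samples. The share of all genes so separated on this scale is not given here.

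Partners outside the set were taken from lists of release cofactors, dense core vesicle genes, endocytosis genes and vesicular transporters. Of 28 tested release cofactors, 27 had a log2 fold change above 0, 9 were called higher (32.1%, against 8.19% of all genes) and 0 lower. Their median was 0.46. Sytl3, a Rab27 effector of secretory granules, was measured at 38.1, 29.5 and 28.7 CPM after PRATA and at 16.4, 18.9 and 13.7 CPM after the sham operation. The lowest PRATA sample was clearly above the highest sham sample (log2 fold change 0.97 ± 0.20, edgeR adjusted p = 0.156). Erc2, an active zone scaffold, was measured at 49.2, 43.2 and 43.5 CPM after PRATA and at 23.6, 32.5 and 21.7 CPM after the sham operation. Here, too, all PRATA samples lay above (log2 fold change 0.81 ± 0.20, edgeR adjusted p = 0.158). Bsn, Bassoon, which organises the active zone, was measured at 423, 371 and 385 CPM after PRATA and at 222, 299 and 223 CPM after the sham operation. The lowest PRATA sample lay above sham replicate 2 (log2 fold change 0.67 ± 0.20, edgeR adjusted p = 0.178).

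Of 13 tested genes of dense core vesicle cargo and processing, 11 were above 0 and 7 were called higher (53.8%, against 8.19% of all genes). Their median was 0.52. Vgf, a granin-like cargo of dense core vesicles, was measured at 172, 183 and 212 CPM after PRATA and at 81.7, 104 and 79.8 CPM after the sham operation. All PRATA samples lay far above all sham samples, at 2.14-fold (log2 fold change 1.10 ± 0.18, edgeR adjusted p = 0.156). Chgb, chromogranin B, was measured at 202, 124 and 164 CPM after PRATA and at 89.96, 125 and 89.6 CPM after the sham operation. PRATA replicate 2 and sham replicate 2 lay side by side (log2 fold change 0.69 ± 0.23, edgeR adjusted p = 0.206). Ptprn, a membrane protein of dense core granules, was measured at 273, 312 and 261 CPM after PRATA and at 164, 203 and 217 CPM after the sham operation. Each PRATA sample exceeded each sham sample (log2 fold change 0.54 ± 0.19, edgeR adjusted p = 0.216).

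Endocytosis genes had 17 of 22 above 0 and 3 called higher (13.6%, against 8.19% of all genes), with a median of 0.25. Pacsin1, which bends membrane at the neuronal endocytic site, was measured at 83.9, 53.8 and 91.6 CPM after PRATA and at 38.8, 54.2 and 46.2 CPM after the sham operation. PRATA replicate 2 overlapped with sham replicate 2 (log2 fold change 0.72 ± 0.24, edgeR adjusted p = 0.196). Sh3gl2, endophilin A1, was measured at 33.6, 25.2 and 41.5 CPM after PRATA and at 21.4, 26.1 and 15.4 CPM after the sham operation. PRATA replicate 2 overlapped with sham replicate 2 here as well (log2 fold change 0.68 ± 0.26, edgeR adjusted p = 0.233). Itsn1, the scaffold intersectin, was measured at 118, 131 and 115 CPM after PRATA and at 103, 84.1 and 91.3 CPM after the sham operation. There was no overlap between the groups (log2 fold change 0.39 ± 0.16, edgeR adjusted p = 0.254).

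Of 8 vesicular transporters, 4 were tested and 1 was called (25%, against 8.19% of all genes). Slc17a6, VGLUT2, which fills vesicles with glutamate in most sensory neurons, was measured at 218, 185 and 262 CPM after PRATA and at 117, 176 and 113 CPM after the sham operation. The groups did not overlap (log2 fold change 0.71 ± 0.23, edgeR adjusted p = 0.196). Slc17a7, VGLUT1, had a log2 fold change of 0.53 ± 0.42, and Slc17a8, VGLUT3, had -0.54 ± 0.78, both with overlapping groups. Slc17a7 was called when PRATA replicate 2 was left out (0.88, edgeR adjusted p = 0.294), and Slc17a8 was at 0.59 without sham replicate 2.

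**Figure D5:**
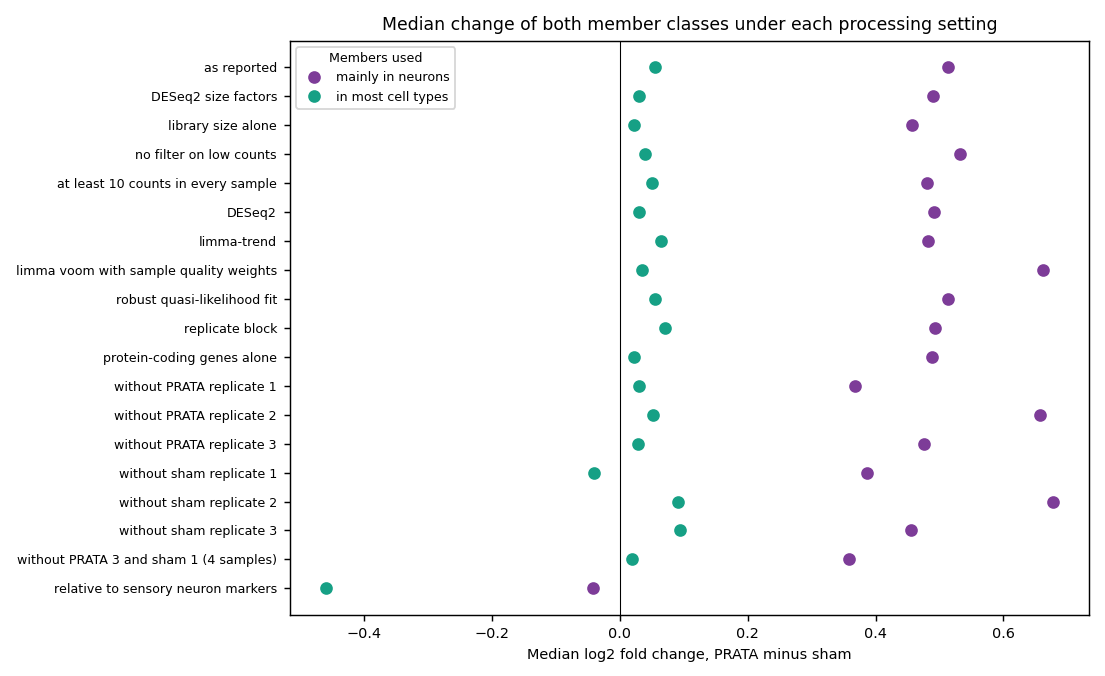
Median log2 fold change of the isoforms used mainly in neurons and of those used in most cell types under each setting. The neuronal class was above 0 in each setting except relative to the sensory neuron markers (-0.042). The class used in most cell types turned to -0.46 there and to -0.040 without sham replicate 1. Relative to the markers the median of all genes was -0.49.

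Among the 17 genes called higher, 7 were called again when each of the 6 samples was left out singly, among them Rims3, Syngr3, Unc13a, Sv2a, Stx1a and Syt14. Stx1a and Unc13a were called in 17 of the 18 alternatives, the exception being the scale relative to the sensory neuron markers. Cplx1, Stx2, Rims2, Syt2, Cadps and Snap91 were called again in 2 of the 6 single leave-outs, those without PRATA replicate 2 and without sham replicate 2. Rab3d lost its call without PRATA replicate 3 (0.47), and Syngr1 without PRATA replicate 3, sham replicate 1 or sham replicate 3 (0.50, 0.70 and 0.71). Of the partners named above, Sytl3, Erc2, Bsn and Vgf were called in each single leave-out, while Chgb, Ptprn, Pacsin1, Sh3gl2, Itsn1 and Slc17a6 each lost the call in at least 3 of the 6.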

How the data were processed

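RNA of neurons from L1-L2 DRGs was sequenced in 3 PRATA and 3 sham samples, and groups were taken from the labels. The deposited table holds raw gene counts made by the authors, without normalization. The submitters' processing notes name STAR 2.7.3a, RSEM and DESeq2, whereas the study's methods name HISAT2 2.0.4, StringTie 1.3.1 and Cuffdiff 2.1.1. The genome build and the strand setting of the counting are not given in the sources used here. The age in the labels (6 to 8 weeks) is below the age at purchase in the study's methods.

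Totals and floors are given above; intervals and floors cover counting error only, and a low gene in the shallowest library (sham replicate 2) is measured least precisely. Genes were kept by edgeR's filterByExpr (minimum count 10, minimum total 15), which left 14919 of 25689 genes. With R 4.3.3 and edgeR 4.0.16, TMM scaling (factors 0.953 to 1.10) preceded a two-sided quasi-likelihood test of the PRATA effect, with no covariate. P-values were adjusted by Benjamini-Hochberg over all genes tested. CPM values are TMM-normalized, and the SE of a log2 fold change was taken as its size divided by the square root of the F statistic. The fit was tested on simulated data.

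The genes and lists were chosen with earlier results of these data known, and roles, classes and markers come from general knowledge. Named were up to 3 genes with the smallest p in each role, any gene both under an unadjusted p of 0.05 and over 1 in absolute log2 fold change (there was none), a fixed list of well-known release genes, and up to 3 genes in each list of partners; others were named after their values were seen. Results of single genes that were withheld are not reported here, while the counts and medians include every gene tested. The 18 alternatives used DESeq2 1.42.0 and limma 3.58.1 besides edgeR, and covered scaling, filters, tests, the replicate block, samples left out and the sensory neuron markers as reference. Promoters came from RefSeq (GRCr8). Python 3.11.15 with matplotlib 3.10.9 made the plots.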

Additional observations from a re-analysis of the deposited data

How the results depend on the processing

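Counts of genes higher after PRATA at an unadjusted p under 0.05 (17) were 26 with no filter on low counts, which also moved the median of all genes to -0.17. They were 39 by limma voom with sample quality weights and 4 with PRATA replicate 3 and sham replicate 1 both left out. Relative to the sensory neuron markers the count was 0, against 0.134% of all genes. Leaving out 1 sample gave 8 (without PRATA replicate 3, sham replicate 1 or sham replicate 3), 9 (without PRATA replicate 1), 25 (without PRATA replicate 2) or 37 (without sham replicate 2). Counts of genes lower (0) were 1 with no filter, 1 by voom and 5 relative to the neuron markers (6.58%, against 25.4% of all genes). With 1 sample left out they were 0 to 1 (1 without PRATA replicate 3 or sham replicate 1). Genes past an adjusted p of 0.05 (0) were 2 by DESeq2 (2.63%, against 4.88% of all genes) and 12 by voom (15.8%, against 7.86%), and 0 to 6 with 1 sample left out (6 without sham replicate 2, 7.89% against 4.67%). Over all genes, 2734 had an unadjusted p under 0.05 in either direction, against 4606 by voom. With 1 sample left out these ran from 1406 (without PRATA replicate 1) to 4254 (without sham replicate 2). Shares of all genes called higher or lower alone are not given with no filter, by voom or with samples left out. The set's counts of genes higher or lower therefore cannot be set against all genes in those settings.

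The labels do not say whether the replicate numbers pair the samples. Same-numbered samples had deviations from their group means that correlated at -0.252 on average, and 0 of 6 samples correlated best with its own number. With 3 samples per group the deviations are bound to their group mean, so these correlations cannot decide whether the numbers pair samples. With the replicate block, 10 genes of the set were higher at an unadjusted p under 0.05. Of all genes, 1528 passed it in either direction. The share of all genes higher alone is not given with the block, so the 10 cannot be set against it. Vamp8 had a log2 fold change of -0.034 with the block.

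The median log2 fold change of the set ran from 0.25 to 0.59 with 1 sample left out (0.59 without sham replicate 2). Relative to the neuron markers it was -0.12, against -0.49 over all genes. There the median of the neuronal class was -0.042 and that of the isoforms of most cell types -0.46. The latter ran from -0.040 (without sham replicate 1) to 0.094 with 1 sample left out. The cause of these moves was not tested.

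Relative to the neuron markers 41 of the 76 genes turned sign, 1 of the 17 called among them (Rims2, -0.0032), and genes and partners named by rule that turned included Stx16 (-0.27), Stxbp5 (-0.25), Vamp4 (-0.23), Vamp1 (-0.26), Rims1 (-0.078), Rab3a (-0.13), Snap25 (-0.091), Nsf (-0.11), Syt7 (-0.13), Syt1 (-0.11), Syp (-0.10), Syn1 (-0.20), Dnm2 (-0.42), Vamp2 (-0.40), Vamp8 (-0.56), Itsn1 (-0.14) and Slc17a7 (-0.099). With the 4 samples, Stx4 (0.047), Syn1 (-0.043) and Vamp2 (-0.10) turned. By voom, Dnm2 (-0.0023), Vamp8 (-0.040) and Slc17a8 (0.30) turned, as did Vamp8 with library size alone (-3e-04) and by limma-trend (-0.0098). With 1 sample left out, the values ran from -0.16 to 0.0059 for Stx4, -0.53 to 0.099 for Stxbp2, -0.0071 to 0.20 for Dnm2, -0.035 to 0.30 for Vamp2, -0.30 to 0.31 for Vamp8 and -1.10 to 0.59 for Slc17a8 (the last without sham replicate 2).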

Other observations

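The 4 genes of the set that failed the filter on low counts had few reads. Syt17 had 1 count over the 3 PRATA samples and 29 over the 3 sham samples, a sham to PRATA ratio of 30.3 (95% interval 5.02 to 1240, counting error only), and 16 of the 29 came from sham replicate 2. Cplx4 had 3 and 19 counts, a ratio of 6.62 (1.95 to 34.9), with 10 of the 19 in sham replicate 2. Syngr4 had 9 counts after PRATA and 0 after the sham operation, and the 95% interval of the PRATA to sham ratio began at 1.89 (counting error only). Vamp5 had 13 and 18 counts. Of Cplx3, which was tested, sham replicate 2 held 41 counts and no other sample more than 11. In Syt17, Cplx4 and Cplx3 alike, the sample with the most counts was sham replicate 2, the shallowest library.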
